A study of Rattus norvegicus with 16 samples.

Results

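The genes described here are the Rab GTPases and the SNARE and vacuolar sorting genes of vesicle transport. They were taken by symbol: every array probe whose RefSeq transcript accession belongs to a rat gene named Rab with a number, Vamp, Stx (syntaxin), Snap or Vps, leaving out Rab17, Rab27a and the Rab11 family interacting proteins. The rule reads names only, and it was set with earlier results of these data known. The array held 72 such genes, among 8899 genes that could be named from their accession, on 105 probes. A probe was used when at least 50% of the 32 array channels (16 arrays in 2 colours) were well above background, and 98 probes of 67 genes passed. The other 5 genes, among them Rab3b, Rab3c, Snap25 and Snap91, did not pass, and no value is given for them. Rab3b, Rab3c and Snap25 serve regulated secretion in nerve and endocrine cells, and Snap91 is a clathrin adaptor of nerve terminals.

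PCCl3 cells, a differentiated follicular thyroid cell line of the rat that still depends on thyrotropin, were grown in 5% donor calf serum with a hormone mixture containing thyrotropin and insulin. Cells transfected with a siRNA against Pax8 (siPax8, 10 ng/ml) were compared on 2-colour arrays with wild-type cells (wt), and separately with cells that received a scramble siRNA at the same dose. Each comparison had 4 biological replicates, each hybridised in both dye orientations, giving 8 arrays, and RNA was taken 48 h after transfection. The sources differ on whether the wt cells received the transfection reagent. The wt comparison therefore holds the effects of siRNA transfection and of Pax8 loss together, which cannot be told apart in it, whereas in the scramble comparison both sides received an siRNA. The design scheme lists siPax8 samples 1 to 4 in both comparisons, so the comparisons may share them. All values are log2 ratios of siPax8 over its control, 0 meaning equal signal, given as mean ± SD over 4 replicates after the dye orientations were averaged. p-values come from limma, adjusted by the Benjamini-Hochberg method over all 21817 features tested, and a gene was called at an adjusted p under 0.005, the threshold the study used. The study's final set held probes that passed in both comparisons, whereas each comparison was called by itself here. A microarray ratio does not separate fewer cells of a type from less RNA per cell, and the level of one probe cannot be set against that of another.

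As background, a Rab GTPase is a molecular switch that marks one membrane compartment: an exchange factor loads it with GTP, a GTPase-activating protein turns it off, and in between it recruits the motors and tethers that bring a vesicle to its target. SNARE proteins then fuse the membranes, a Vamp protein on the vesicle pairing with a syntaxin and a Snap protein on the target. Vps proteins build the complexes that sort cargo in endosomes and tether vesicles to lysosomes. A thyroid follicular cell is polarised: it secretes thyroglobulin at its apical face, takes it back by endocytosis, carries it to lysosomes for release of thyroid hormone, and delivers transporters to its basolateral face.

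Pax8, the targeted gene, was checked first. Its log2 ratio over wt was -0.84, -0.57, -0.59 and -0.26 in replicates 1 to 4 (-0.56 ± 0.24, adjusted p = 3.02e-04). Over scramble it was -0.58, -0.29, -0.12 and -0.0070 (-0.25 ± 0.25, adjusted p = 0.0956), so all 8 values lay below 0 and the scramble comparison was not called. The 9 thyroid markers measured were all well above background on every array, and 8 fell against wt and 1 (Tg, thyroglobulin) against scramble. The fibroblast markers Col3a1, Dcn and Lum and the leukocyte marker Itgam were above background on no array. Col1a2 (fibroblast, 0.062 ± 0.045 over wt) and Lyz2 (leukocyte, 0.10 ± 0.040) were above it and were not called, and Cd68, a lysosomal protein used as a macrophage marker, was higher than wt (0.30 ± 0.12) and at -0.0025 ± 0.088 over scramble. A list of interferon response genes moved with the wt comparison: 15 of 16 rose, with a median log2 ratio of 1.62, against 3 of 16 and a median of 0.27 over scramble. The part of this response and of Cd68 in the values below was not tested.

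Against wt, 12 of the 67 measured genes were higher and 7 lower, 19 in all (28.4%). Over all features 12.0% were higher, 14.3% lower and 26.4% called in either direction, so the share of vesicle transport genes called was close to that of the array as a whole. Their median log2 ratio was 0.024, beside -0.012 for all features. Against scramble 1 gene, Rab9a, was higher and none was lower (1.49%), where 1.98% of all features were higher, 1.26% lower and 3.25% called. At an unadjusted p under 0.05 by limma, 12 genes were higher and 4 lower than scramble. No share of all features was taken at that unadjusted threshold, so this split is not read as a trait of these genes. At the wider adjusted threshold of 0.05, 34 of 67 genes were called against wt, beside 45.9% of all features, and 9 of 67 against scramble, beside 15.5%. The changes were small with the main processing: the extreme values over wt were 0.43 (Rab21) and -0.53 (Rab3il1). The median absolute log2 ratio was 0.10 over wt and 0.045 over scramble, beside 0.10 and 0.059 for all features. With Agilent's processed signals instead, Vamp1 was 0.79, Stx11 0.70, Rab21 0.44 and Rab3il1 -0.74 over wt.

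**Figure D1:**
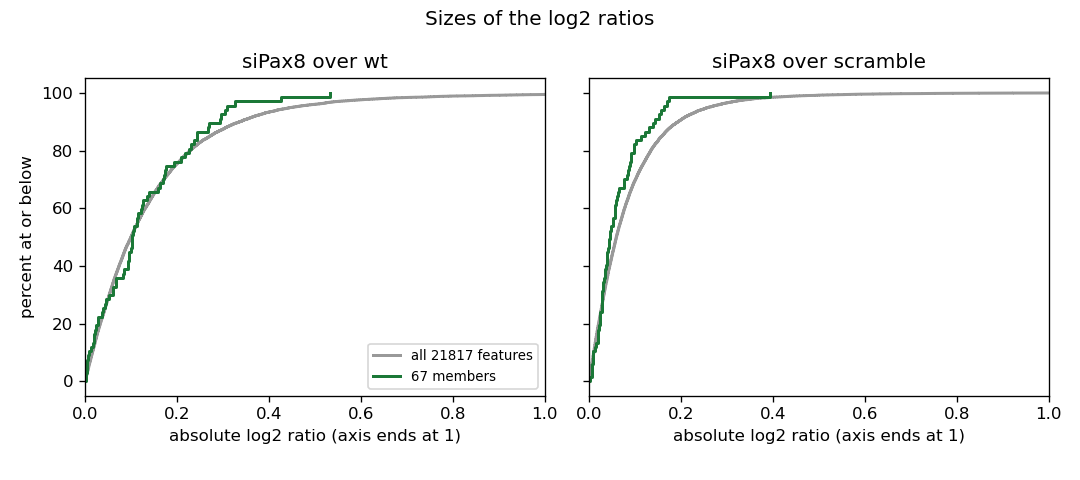
Cumulative percent of features (y axis) at or below an absolute log2 ratio (x axis, ended at 1), for the 67 vesicle transport genes in green and all 21817 features in grey, with siPax8 over wt on the left and over scramble on the right. Against wt the lines run together up to about 0.3, above which lie 5 of the 67 genes (Rab21, Stx3, Rab3gap2, Rab13 and Rab3il1); against scramble only Rab9a passes 0.2.

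**Figure D2:**
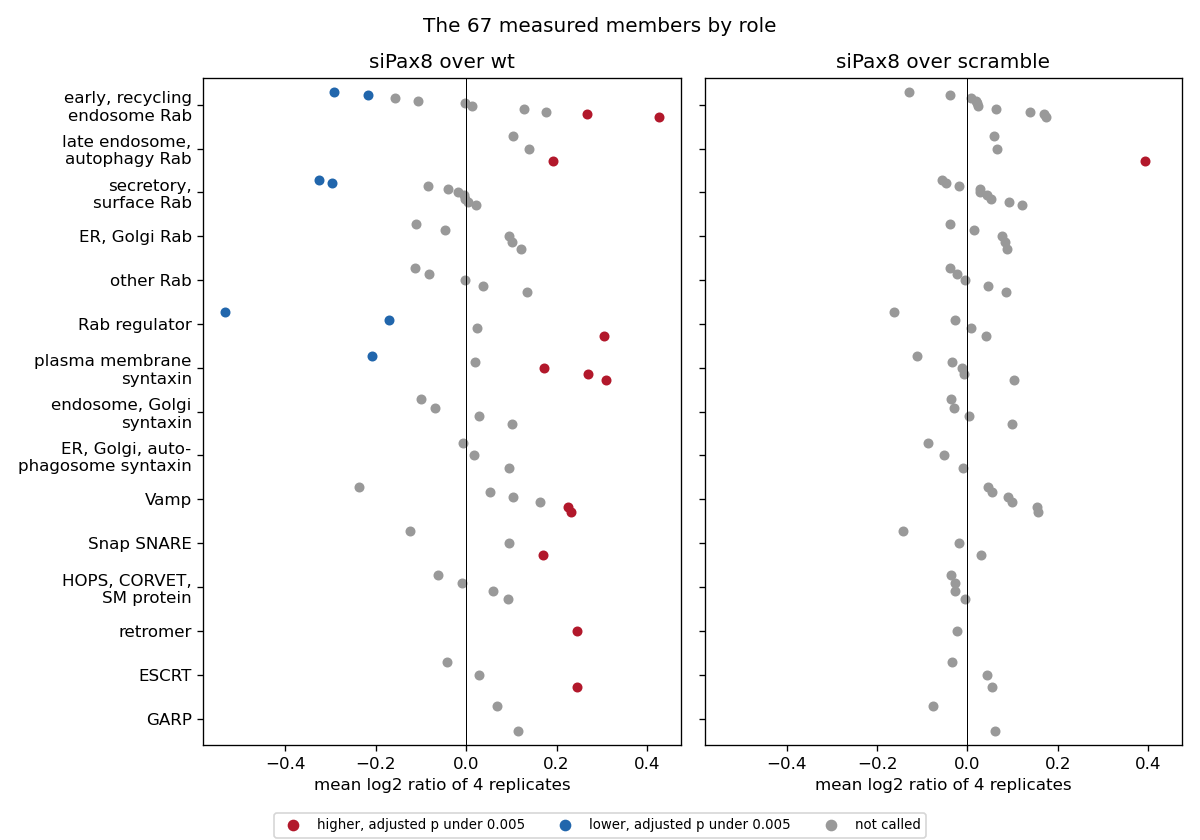
Mean log2 ratio of 4 replicates (x axis) for each of the 67 measured genes, grouped by role (y axis), with genes called higher in red, called lower in blue and not called in grey. Against wt, red and blue points occur together in 3 of the groups (early and recycling endosome Rabs, Rab regulators and plasma membrane syntaxins), and against scramble Rab9a (0.39) stands alone.

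With the main processing, the early and recycling endosome Rabs held the member furthest above wt and also a pair that fell. Of 10 measured, 2 were higher and 2 lower than wt, beside 12.0% and 14.3% of all features, and none was called against scramble. Rab21, which acts with integrins in endocytosis, gave log2 ratios over wt of 0.46, 0.39, 0.49 and 0.37 in replicates 1 to 4 (0.43 ± 0.059, 1.34-fold, adjusted p = 2.28e-05). All 4 values lay above those over scramble, which were 0.14, 0.17, 0.052 and 0.19 (0.14 ± 0.062, adjusted p = 0.0421). Its 2 probes gave 0.41 and 0.44 over wt, and the mean was 0.44 with siPax8 in Cy5 and 0.42 with siPax8 in Cy3. Rab31, which works between the trans-Golgi network and endosomes, gave 0.28, 0.20, 0.39 and 0.20 over wt (0.27 ± 0.090, adjusted p = 7.47e-04). Over scramble it gave 0.23, 0.074, 0.12 and 0.25 (0.17 ± 0.084, adjusted p = 0.0325). Its 8 values were all above 0, and the ranges of the comparisons overlapped.

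Rab4a and Rab4b, close relatives that return receptors from early endosomes to the surface, were both lower than wt. Rab4b gave -0.36, -0.28, -0.26 and -0.27 (-0.29 ± 0.043, 0.816 times wt, adjusted p = 1.59e-04), and Rab4a gave -0.31, -0.11, -0.25 and -0.21 (-0.22 ± 0.085, adjusted p = 0.0021). Over scramble Rab4b stayed below 0 in all 4 replicates (-0.10, -0.10, -0.17 and -0.14, adjusted p = 0.0353), whereas Rab4a lay at 0.065, 0.060, 0.0025 and -0.049, on both sides of 0 (95% interval of the mean -0.062 to 0.10). Whether each probe reads one of these related genes alone was not tested. Rab14, which shuttles between the Golgi and early endosomes, fell just outside the call over wt (0.18 ± 0.083, adjusted p = 0.00624); 1 of its 2 probes was called by itself (0.27, adjusted p = 0.00109, the other 0.13), and 1 was missing on 1 array as an outlier spot. The Rab14 value over wt was 0.32 with siPax8 in Cy5 and 0.032 in Cy3. Rab5a, the master switch of early endosome fusion, gave 0.13 ± 0.051 over wt (adjusted p = 0.0172) and 0.063 ± 0.11 over scramble.

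The recycling endosome Rabs 11a and 11b were not called in either comparison, and each carried a disagreement. Rab11a gave 0.10, 0.18, 0.21 and 0.21 over scramble (0.17 ± 0.053, adjusted p = 0.0168), and 0.013 ± 0.046 over wt. Its 3 probes split over wt, at 0.13, 0.12 and -0.20, while over scramble they gave 0.24, 0.19 and 0.087, the first of them called by itself (adjusted p = 0.00467). The mean over wt is therefore an average of probes of opposite sign. Rab11b gave -0.50, 0.022, 0.011 and 0.041 over wt, with replicate 1 far below the others, and its mean over scramble was 0.0069 ± 0.088.

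Of the Rabs of late endosomes and autophagy, Rab7a was higher than wt and Rab9a higher than scramble. Rab7a, which directs traffic to lysosomes, gave 0.21, 0.24, 0.18 and 0.13 over wt (0.19 ± 0.047, 1.14-fold, adjusted p = 0.00191). Over scramble its replicates spread from -0.15 to 0.22 and crossed 0 (adjusted p = 0.508). Rab9a, which carries mannose 6-phosphate receptors from late endosomes back to the Golgi, gave 0.35, 0.28, 0.44 and 0.49 over scramble (0.39 ± 0.094, 1.31-fold, adjusted p = 0.00177). Within the 4 slides, each holding 2 arrays of the comparison, the value ran from 0.31 to 0.53, and the dye orientations gave 0.39 and 0.40. Over wt the gene gave only 0.21, 0.21, 0.050 and 0.076 (0.14 ± 0.088, adjusted p = 0.0216), each replicate lower than the lowest over scramble. The direct test of the difference, over wt minus over scramble, gave -0.25 (95% interval -0.39 to -0.12) with an adjusted p of 0.0148, which missed the threshold. Rab9a was read by 1 probe.

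Of 9 secretory and surface delivery Rabs, 2 were lower than wt and none was higher, beside 14.3% and 12.0% of all features, and none was called against scramble. Rab13, a regulator of tight junctions and of traffic to the lateral membrane in epithelia, gave -0.30, -0.25, -0.32 and -0.44 over wt (-0.33 ± 0.080, 0.798 times wt, adjusted p = 1.86e-04). Over scramble it gave 0.12, 0.10, -0.045 and -0.068, on both sides of 0 (95% interval of the mean -0.074 to 0.13), so the ranges did not overlap. The size over wt differed by dye, -0.20 with siPax8 in Cy5 and -0.45 in Cy3. Rab3a, which binds secretory granules, gave -0.47, -0.14, -0.26 and -0.33 over wt (-0.30 ± 0.14, adjusted p = 0.0014) and 0.013, -0.031, 0.11 and 0.082 over scramble. Here too the ranges did not overlap.

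The related Rab3d, of exocrine granules, gave -0.085 ± 0.10 over wt and 0.052 ± 0.031 over scramble and was not called. Rab8a, Rab8b and Rab10, which carry vesicles from the Golgi to the surface, lay between -0.0038 and 0.021 over wt and between -0.057 and 0.028 over scramble. The 2 probes of Rab10 had opposite signs over wt (0.14 and -0.095). Rab27b, a Rab of secretory granules and exosomes, gave -0.018 ± 0.022 over wt and 0.091 ± 0.067 over scramble, neither called. Rab34, which positions lysosomes, was set apart over wt by replicate 1 (-0.37, 0.0021, -0.060 and -0.028). The 5 Rabs of the endoplasmic reticulum and Golgi, which move cargo through the early secretory pathway, gave no call in either comparison and spanned -0.11 to 0.12 over wt.

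**Figure D3:**
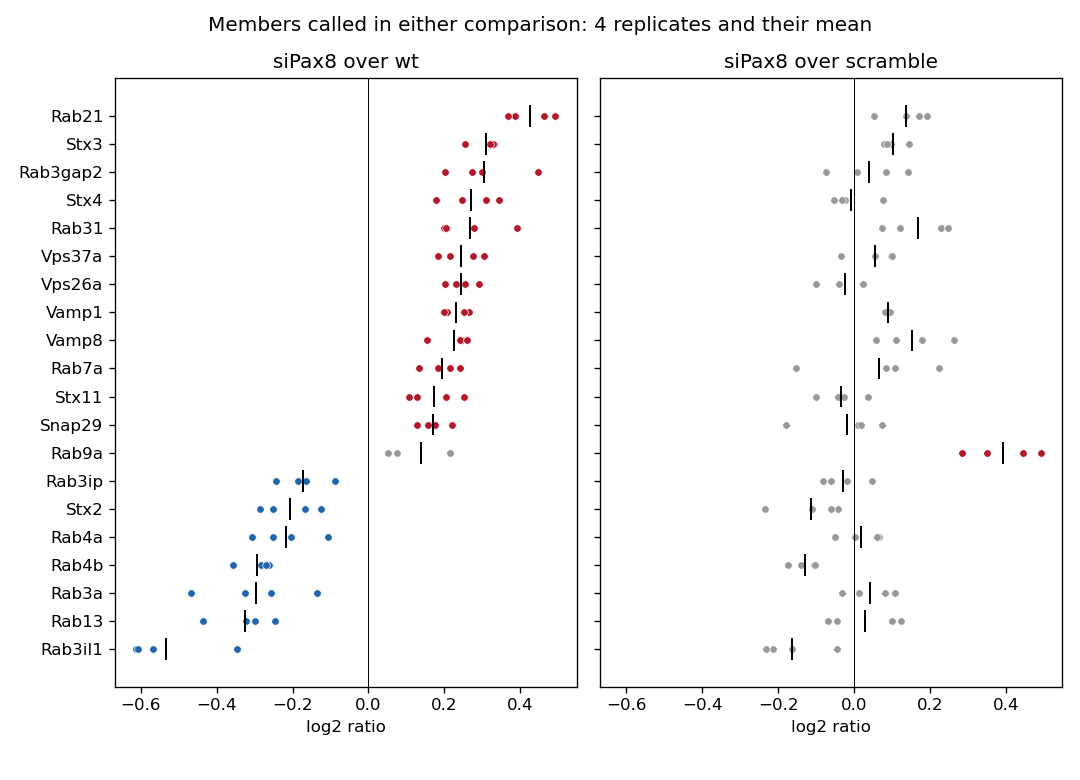
The 4 replicate log2 ratios (points, x axis) and their mean (black bars) for the 20 genes called in either comparison, over wt on the left and over scramble on the right; red and blue points belong to values called higher and lower, grey to values not called. Over wt the 19 called genes have all 4 replicates on the same side of 0. Over scramble their means lie nearer 0, while that of Rab9a lies further from 0 than over wt. The genes were chosen by these same replicates in the comparison that called them. Agreement in sign there, and smaller values in the other comparison, are therefore partly set by the choice of genes.

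Regulators of Rabs moved in both directions. Of 4 measured, 1 was higher and 2 lower than wt, beside 12.0% and 14.3% of all features, and none was called against scramble. Rab3il1, an exchange factor that activates Rab GTPases of the Rab3 and Rab8 kind, gave the largest fall of the 67 genes over wt, -0.61, -0.35, -0.61 and -0.57 in replicates 1 to 4 (-0.53 ± 0.13, 0.691 times wt, adjusted p = 3.16e-05). Over scramble it gave -0.044, -0.16, -0.21 and -0.23 (-0.16 ± 0.084, adjusted p = 0.0362). All 8 values lay below 0, with every value over wt below every value over scramble. Its paralogue Rab3ip (Rabin8), which activates Rab8 at the primary cilium, gave -0.25, -0.089, -0.19 and -0.17 over wt (-0.17 ± 0.065, adjusted p = 0.00498). That call depended on the dye: the mean was 0.019 with siPax8 in Cy5 and -0.36 in Cy3. Rab3gap2, a subunit of the complex that turns Rab3 off and activates Rab18, was higher than wt, at 0.45, 0.30, 0.20 and 0.27 (0.30 ± 0.10, adjusted p = 4.87e-04), and lay at 0.14, 0.084, 0.0092 and -0.075 over scramble. Rab18 itself gave 0.12 ± 0.043 over wt (adjusted p = 0.0192).

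Among syntaxins, the calls lay with those of the plasma membrane. There 3 of 5 were higher and 1 was lower than wt, beside 12.0% and 14.3% of all features. The 7 syntaxins of endosomes, the Golgi, the endoplasmic reticulum and autophagosomes gave no call, and whether the groups differ was not tested. Stx3, the syntaxin of the apical membrane in epithelia, gave 0.26, 0.33, 0.33 and 0.32 over wt (0.31 ± 0.036, 1.24-fold, adjusted p = 1.02e-04) and 0.10, 0.15, 0.080 and 0.086 over scramble (adjusted p = 0.0714). Stx4, its basolateral counterpart, gave 0.31, 0.35, 0.25 and 0.18 over wt (0.27 ± 0.074, adjusted p = 4.97e-04) and -0.024, 0.078, -0.032 and -0.053 over scramble (95% interval of the mean -0.091 to 0.076). For both genes the values over wt and over scramble did not overlap. With Agilent's processed signals, the Stx3 value over wt was 0.58. The Stx4 value over wt was 0.40 with siPax8 in Cy5 and 0.14 in Cy3.

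Stx2, a plasma membrane syntaxin also known from cell division, was lower than wt, at -0.25, -0.17, -0.13 and -0.29 (-0.21 ± 0.073, adjusted p = 0.00213), and its 4 values over scramble (-0.042, -0.060, -0.24 and -0.11) overlapped these. With siPax8 in Cy5 its value over wt was -0.28 and in Cy3 -0.13. Stx11, best known from killer lymphocytes, passed the threshold narrowly over wt (0.11, 0.13, 0.20 and 0.25; 0.17 ± 0.067, adjusted p = 0.00499) and gave -0.033 ± 0.057 over scramble. With Agilent's processed signals it was 0.70 over wt. Stx1a, a syntaxin of nerve terminals, was well above background on only 9 of 16 siPax8, 2 of 8 wt and 5 of 8 scramble array channels. The endosomal syntaxins Stx6, Stx7, Stx8 and Stx12 lay between -0.10 and 0.10 over wt, and Stx5, Stx17 and Stx18, of the Golgi, autophagosome and endoplasmic reticulum, between -0.0074 and 0.10. Of the 3 Stx12 probes, 1 was called lower than wt by itself (-0.21, adjusted p = 0.00449), while the others gave -0.0052 and 0.012.

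The vesicle-side SNAREs had 2 of 6 Vamp genes higher than wt and none lower, beside 12.0% and 14.3% of all features. Vamp8 (endobrevin), which serves late endosome fusion and exocytosis in secretory epithelia, gave 0.16, 0.25, 0.24 and 0.26 over wt (0.23 ± 0.047, 1.17-fold, adjusted p = 8.01e-04). Over scramble it gave 0.057, 0.11, 0.26 and 0.18 (adjusted p = 0.0488). All 8 values were above 0, but the dye orientations differed, at 0.34 and 0.11 over wt and at 0.33 and -0.025 over scramble for siPax8 in Cy5 and Cy3. Vamp1, a vesicle SNARE of nerve terminals, gave 0.26, 0.25, 0.21 and 0.20 over wt (0.23 ± 0.033, adjusted p = 5.52e-04), and 1 of its 2 probes was above background on 7 of 8 wt channels. Its value with Agilent's processed signals was 0.79. Vamp7, of late endosomes and lysosomes, was below 0 in every replicate over wt (-0.12, -0.28, -0.46 and -0.089) and was not called (adjusted p = 0.00914). Over scramble its values ran from -0.081 to 0.36. The fall of Vamp7 over wt was seen in 1 dye orientation, at 0.0046 with siPax8 in Cy5 and -0.48 in Cy3. Over scramble the orientations gave 0.34 and -0.14. Vamp2 and Vamp3, which fuse secretory and recycling vesicles with the surface, gave 0.052 ± 0.14 and 0.10 ± 0.059 over wt and were not called.

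On the target side, Snap29, which joins autophagosomes to lysosomes with Stx17, was higher than wt (0.18, 0.16, 0.13 and 0.22; 0.17 ± 0.039, adjusted p = 0.00339) and lay at -0.019 ± 0.11 over scramble. Only 1 of its 2 probes was called by itself (0.23, the other 0.11), and the dye orientations gave 0.25 and 0.093 over wt. Snap23, the general Snap protein of non-neuronal surface fusion, was below 0 in all 8 values, at -0.12 ± 0.070 over wt (adjusted p = 0.025) and -0.14 ± 0.077 over scramble (adjusted p = 0.0483), and was called in neither. Snap47 gave 0.094 ± 0.086 over wt and 0.030 ± 0.072 over scramble.

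Of 10 Vps genes measured, 2 were higher than wt and none was lower, beside 12.0% and 14.3% of all features. None was called against scramble. Vps26a, the arrestin-like subunit of retromer, the coat that returns cargo from endosomes, gave 0.29, 0.25, 0.23 and 0.20 over wt (0.24 ± 0.037, 1.19-fold, adjusted p = 4.23e-04). Over scramble it gave 0.024, 0.024, -0.10 and -0.040 (95% interval of the mean -0.11 to 0.061) and did not overlap the wt values. Vps37a, a subunit of the ESCRT-I complex that sorts ubiquitin-marked cargo into multivesicular bodies, gave 0.31, 0.28, 0.18 and 0.22 over wt (0.24 ± 0.056, adjusted p = 5.88e-04) and 0.055 ± 0.063 over scramble. The ATPases Vps4a and Vps4b, which take ESCRT apart, lay at -0.043 ± 0.10 and 0.029 ± 0.090 over wt. Vps16, Vps33b and Vps45, which tether membranes or hold SNAREs for fusion at endosomes and lysosomes, lay between -0.062 and 0.060, and Vps52 and Vps54, of the GARP tether at the trans-Golgi network, at 0.12 ± 0.067 and 0.067 ± 0.057. None of these was called. The 18 measured genes outside the naming rule, which takes in every called gene, ran from -0.16 (Rab35) to 0.16 (Vamp5) over wt and from -0.039 (Rab43) to 0.16 (Vamp5) over scramble.

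The difference between the comparisons, over wt minus over scramble, was tested directly for each gene, treating the siPax8 samples of the comparisons as separate. It was called for 5 of 67 genes (7.46%), beside 5.91% of all features. Rab21, Stx4 and Vps26a were higher against wt than against scramble, by 0.29 (95% interval 0.18 to 0.40), 0.28 (95% interval 0.16 to 0.39) and 0.27 (95% interval 0.17 to 0.37), with adjusted p of 0.00262, 0.00413 and 0.0027. Rab13 and Rab3il1 were lower, with differences of -0.35 (95% interval -0.49 to -0.22) and -0.37 (95% interval -0.52 to -0.22), with adjusted p of 0.00258 and 0.00375. Rab3a, at -0.34 (95% interval -0.49 to -0.19) with an adjusted p of 0.00617, and Stx3, at 0.21 (95% interval 0.12 to 0.30) with an adjusted p of 0.00628, missed the threshold narrowly. With the replicate number as a block, Rab3a (adjusted p = 0.00349) and Rab3gap2 (adjusted p = 0.00308) were called as well. Each of the 5 calls was lost when any 1 replicate was left out, where adjusted p ran from 0.00588 to 0.0378 with the sign kept.

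**Figure D4:**
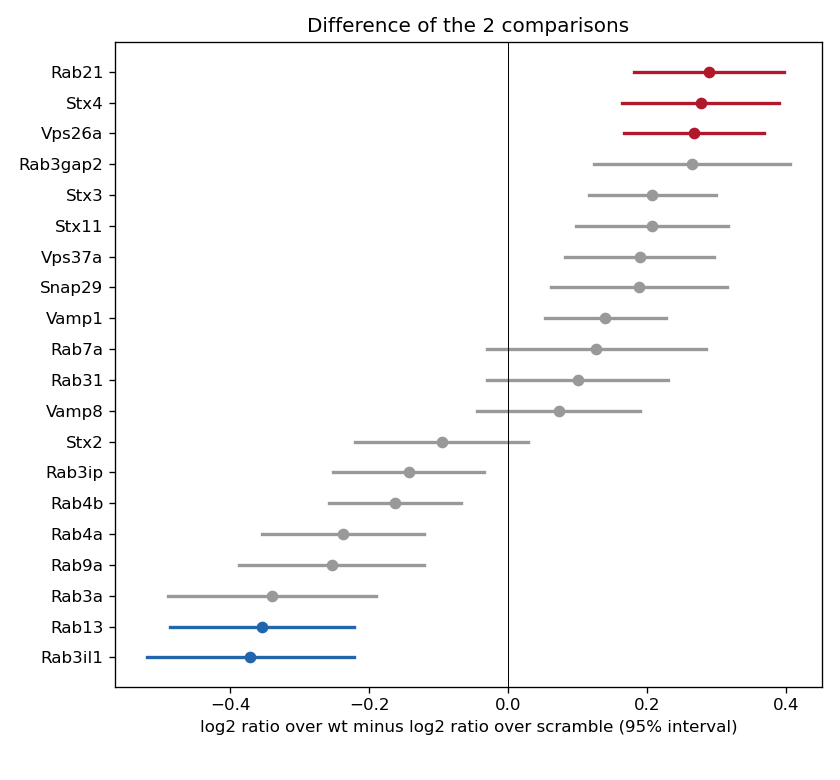
Log2 ratio over wt minus log2 ratio over scramble (x axis) for the 20 genes called in either comparison, as the estimate (point) and its 95% interval (line); red and blue mark differences called higher and lower, grey those not called. Rab21, Stx4 and Vps26a lie to the right and Rab13 and Rab3il1 to the left, and the intervals of Rab7a, Rab31, Vamp8 and Stx2 cross 0.

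How well a value was carried by single replicates and probes varied among the called genes. All 19 calls over wt kept their sign on each of the 4 slides, and 18 kept it in both dye orientations, the exception being Rab3ip. Slides and dye orientations regroup the same arrays that made the calls, so agreement in sign is partly set by the choice of genes. Calls of 8 genes over wt (Rab13, Rab21, Rab3gap2, Rab3il1, Rab4b, Stx3, Stx4 and Vps26a) held whichever replicate was left out. Rab31 lost its call without replicate 3 (adjusted p = 0.00565), and Vamp1 and Vps37a without replicate 2 (0.00514 and 0.00566). Rab3a and Rab4a lost it without replicates 3 and 4 (highest adjusted p 0.00805 and 0.0155), and Rab7a, Stx11 and Vamp8 without replicates 2, 3 and 4 (highest 0.0142, 0.0328 and 0.00724). Rab3ip, Snap29 and Stx2 lost it whichever replicate was left out (highest 0.0300, 0.0238 and 0.0151). So did Rab9a over scramble, with log2 ratios of 0.36 to 0.43 and adjusted p of 0.00571 to 0.0158. Of 26 genes with more than 1 probe, 17 had probes of 1 sign over wt and 22 over scramble. Among the 5 of these called over wt, each probe was called by itself for Rab21, Rab31, Vamp1 and Vps37a, but not for Snap29. Vps33a, named after its values were seen like Rab18 and Stx1a and not called as a gene, had 1 of 4 probes called higher than wt (0.24, the others 0.023 to 0.067).

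**Figure D5:**
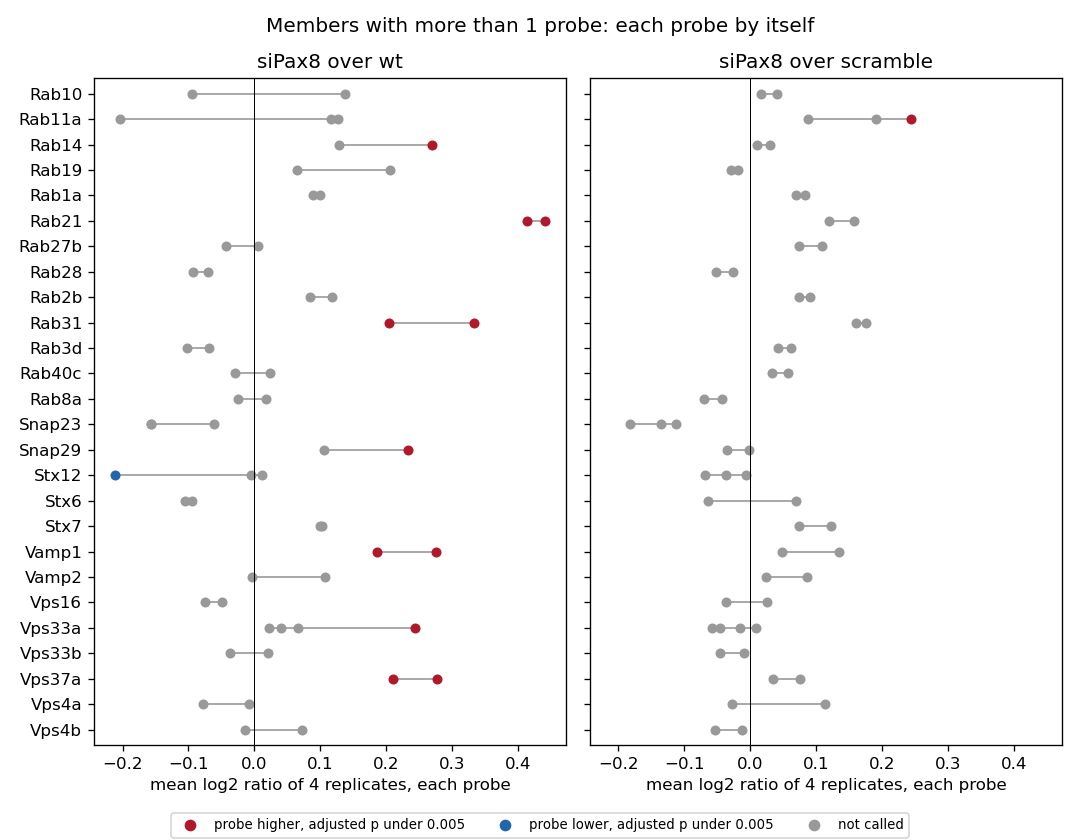
Mean log2 ratio of 4 replicates (x axis) of each probe by itself for the 26 genes with more than 1 probe (y axis), over wt on the left and over scramble on the right, with probes called higher in red, lower in blue and not called in grey. Rab21 shows probes that lie together (0.41 and 0.44 over wt), whereas those of Rab11a, Rab10 and Stx12 lie on both sides of 0 over wt.

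The promoter letters of the called genes were read from RefSeq sequences of build GRCr8, each 300 bases from 250 before to 50 after the annotated start of the gene. A promoter was found for 59 of the 67 measured genes. Motifs were searched on both strands: CACGTG (the E-box within the CLEAR element of lysosomal genes, the same on both strands), GGGCGG (the GC box bound by Sp1), TGACGTCA (cAMP response element), TGACTCA (AP-1), TTCNNTTTC (core of the interferon-stimulated response element) and AAGCGTGAC (a core bound by Pax2, Pax5 and Pax8). CACGTG was present in 9 of the 59 promoters (15.3%), in 4 of 11 of genes higher than wt, in 1 of 7 of genes lower than wt and in 4 of 41 of genes not called over wt, beside 6.65% of all 27457 promoters. GGGCGG was present in 46 (78.0%), beside 34.9% of all. It was in 10 of 11 of genes higher than wt, 6 of 7 lower and 30 of 41 not called. The promoters of the 59 genes were also richer in G and C, with a median of 63.0% beside 52.3% for all promoters. The median was 66% for genes higher than wt, 67% for genes lower and 61.7% for genes not called. The part of base composition in these shares was not tested. TGACGTCA was in 2 (Vamp1 and Vps26a; 1.91% of all), TGACTCA in 4 (4.53% of all), TTCNNTTTC in 4 (9.50% of all) and AAGCGTGAC in none (0.0656% of all). A match is a string of letters, not a site shown to be bound.

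The 5 promoters of genes called over wt that hold CACGTG are shown with that of Rab9a, the gene called over scramble, which lacks it; capitals mark every match to a motif above, on either strand.
Rab21, chr7:52814894-52815193, minus strand: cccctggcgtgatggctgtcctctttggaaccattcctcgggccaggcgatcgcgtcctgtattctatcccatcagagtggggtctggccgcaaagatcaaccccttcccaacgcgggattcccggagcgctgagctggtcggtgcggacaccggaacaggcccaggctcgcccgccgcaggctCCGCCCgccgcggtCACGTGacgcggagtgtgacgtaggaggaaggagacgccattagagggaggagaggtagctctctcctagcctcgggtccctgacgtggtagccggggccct
Rab31, chr9:112828043-112828342, minus strand: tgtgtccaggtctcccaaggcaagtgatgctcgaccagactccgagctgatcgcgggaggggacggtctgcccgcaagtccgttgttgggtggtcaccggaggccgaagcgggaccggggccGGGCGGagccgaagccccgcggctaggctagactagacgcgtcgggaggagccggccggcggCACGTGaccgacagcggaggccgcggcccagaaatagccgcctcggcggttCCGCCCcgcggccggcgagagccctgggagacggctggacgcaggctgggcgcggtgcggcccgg
Vps26a, chr20:30976840-30977139, minus strand: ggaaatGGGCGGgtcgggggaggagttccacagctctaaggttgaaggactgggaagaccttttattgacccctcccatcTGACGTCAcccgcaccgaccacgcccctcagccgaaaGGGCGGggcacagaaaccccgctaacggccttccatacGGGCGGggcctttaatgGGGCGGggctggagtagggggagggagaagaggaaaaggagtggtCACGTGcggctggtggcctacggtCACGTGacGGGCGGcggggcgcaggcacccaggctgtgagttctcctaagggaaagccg
Snap29, chr11:97113146-97113445, minus strand: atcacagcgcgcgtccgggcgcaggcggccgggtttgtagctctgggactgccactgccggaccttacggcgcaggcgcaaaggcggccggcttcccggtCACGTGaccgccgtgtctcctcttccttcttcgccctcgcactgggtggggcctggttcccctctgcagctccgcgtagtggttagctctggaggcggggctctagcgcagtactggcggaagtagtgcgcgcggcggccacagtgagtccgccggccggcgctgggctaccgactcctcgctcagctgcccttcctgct
Rab3il1, chr1:216087654-216087953, plus strand: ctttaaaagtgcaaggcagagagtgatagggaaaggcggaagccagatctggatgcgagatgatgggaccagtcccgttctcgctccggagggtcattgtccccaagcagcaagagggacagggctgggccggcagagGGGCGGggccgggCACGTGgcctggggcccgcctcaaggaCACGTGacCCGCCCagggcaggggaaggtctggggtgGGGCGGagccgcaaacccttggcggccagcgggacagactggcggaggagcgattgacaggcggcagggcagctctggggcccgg
Rab9a, chrX:31609839-31610138, plus strand: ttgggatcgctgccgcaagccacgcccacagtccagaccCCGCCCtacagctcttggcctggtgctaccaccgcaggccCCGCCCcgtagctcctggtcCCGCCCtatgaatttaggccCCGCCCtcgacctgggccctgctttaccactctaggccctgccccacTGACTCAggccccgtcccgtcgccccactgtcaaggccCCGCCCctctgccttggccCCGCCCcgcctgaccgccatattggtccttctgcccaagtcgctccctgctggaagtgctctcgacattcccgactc

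The E-box is thus seen in 4 genes that were higher than wt (Rab21, Rab31, Vps26a and Snap29) and in the gene that fell furthest (Rab3il1), with the motif at 2 places in Vps26a and in Rab3il1. The promoter of Vps26a also holds TGACGTCA, and that of Rab9a holds TGACTCA and 6 matches to the GC box on the opposite strand.

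Genes that work with these members were followed through 4 lists. Of 85 measured genes (SNARE machinery, Rab regulators and effectors, coats and adaptors, and tethers, ESCRT and sorting nexins), 11 were higher and 5 lower than wt (18.8%, beside 26.4% of all features). None was called against scramble, beside 3.25% of all features, and 6 passed an adjusted p of 0.05 there, beside 15.5%. The SNARE machinery list (18 measured) gave 1 higher call, Stxbp5 (tomosyn, an inhibitor of SNARE assembly, 0.17 ± 0.052), and a median of -0.0086. Among 15 Rab regulators and effectors 3 were higher, Rabggtb (a subunit of the enzyme that attaches the lipid anchor to Rabs, 0.26 ± 0.051) and the Rab5 effectors Rabep1 (0.23 ± 0.069) and Rabep2 (0.18 ± 0.047). In the same list Rph3al (Noc2, an effector of Rab3 and Rab27) was lower (-0.19 ± 0.047). Among 24 coats and adaptors, 4 were higher and 1 lower. The subunits of the AP-2 adaptor of clathrin endocytosis split, Ap2m1 at 0.39 ± 0.13 and Ap2b1 at 0.18 ± 0.040 being higher and Ap2s1 at -0.26 ± 0.032 lower. Among 28 tethers, ESCRT genes and sorting nexins, 3 were higher and 3 lower, the exocyst subunits Exoc8 (0.39 ± 0.24) and Exoc7 (-0.24 ± 0.034) going opposite ways. Snx16, a sorting nexin of endosomes, gave 0.37 ± 0.056 over wt and -0.075 ± 0.11 over scramble.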

How the data were processed

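Total RNA of PCCl3 cells was amplified, labelled and hybridised to 2-colour Agilent rat 44K arrays, 16 in all, with 2 arrays of each comparison on each of 4 slides. The deposited scanner intensity values (mean spot signal and median local background, and Agilent's processed signals) were made with Agilent Feature Extraction 10.1.1.1, per the file headers. The authors also deposited a log2 table after loess and quantile normalization with limma; set against the scanner values, it holds control over siPax8, and was used as an alternative with its sign turned.

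Scanner intensities were background-corrected (normexp, offset 50), normalized within arrays by loess and between arrays by quantiles in limma 3.58.1 (R 4.3.3). Control spots and outlier spots were left out. Of 41012 probes, 10768 were named through their RefSeq accession (GRCr8 gene table, used for names). Probes of a gene were averaged, unnamed probes were kept as they are, and dye swaps were averaged to 4 values a comparison. Deviations of the dye orientations of a replicate correlated at 0.12 to 0.58, and above any other number in 7 of 8 cases, the exception being wt replicate 2 (0.12 beside 0.20). Each comparison was fitted alone by limma with moderated variance; the difference was fitted on the 8 averaged values as 2 groups. The procedure was tested on simulated data. Between 52.0% and 60.8% of spots per channel were well above background, and the number of arrays limits the precision. The offset shrinks the ratios of dim probes. Slide, read from the array barcodes, was examined as a batch, with replicate blocks and a dye term among the alternatives.

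Named genes were every called member plus members that textbooks tie to epithelial or thyroid transport. The name of 1 member below the filter is not reported here. Members, gene lists, motifs and tests were chosen with earlier results of these data known. The alternatives were other signals and normalizations, other filters, the brightest probe, each dye alone, a dye term, replicate and slide blocks, a joint fit, a wider threshold and leaving out each replicate.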

Additional observations from a re-analysis of the deposited data

Results flagged for a closer look

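Each comparison's 4 replicates were examined for 1 that stood far from the rest, over 98 values of 49 named genes. The gap from the extreme replicate to its nearest neighbour, divided by the range of the 4, exceeded Dixon's 95% critical value for 4 samples in 6 cases, and chance alone passes about 1 in 20 such groups. Over wt these were Rab11b (0.944, replicate 1 at -0.50 and the others from 0.011 to 0.041), Rab27b (0.875), Rab34 (0.833, replicate 1 at -0.37) and Stx3 (0.871, replicate 1 at 0.26 and the others from 0.32 to 0.33). Over scramble they were Snap47 (0.903, replicate 4 at -0.077) and Vps16 (0.832). Stx3 is the only one of these values that was called.

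The log2 ratio differed between the comparisons, over wt minus over scramble, for Rab21 (0.29), Stx4 (0.28), Vps26a (0.27), Rab13 (-0.35) and Rab3il1 (-0.37) by limma's test of the difference at an adjusted p under 0.005. The comparisons may share their siPax8 samples. The median log2 ratio of 16 interferon response genes was 1.62 over wt and 0.27 over scramble, and its part in these differences was not tested.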

How the results depend on the processing

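The count of genes higher than wt, 12 in the report, was 3 with siPax8 in Cy3 alone and 16 in Cy5 alone. It was 16 with a dye term, 18 with a slide block, 22 at an adjusted p under 0.05 and 6 to 11 without 1 replicate. Over all features, 2625 were higher, beside 1532 in Cy3 alone, 3312 in Cy5 alone and 1604 to 2726 without 1 replicate. They numbered 3391 with a dye term, 4000 with a slide block and 4492 at an adjusted p under 0.05. The count of genes lower than wt, 7 in the report, was 4 with Agilent's processed signals and 12 and 4 with siPax8 in Cy5 and in Cy3 alone. It was 9 with a dye term and with a slide block, 12 at an adjusted p under 0.05 and 3 to 5 without 1 replicate. Over all features, 3127 were lower, beside 3889 and 1631 in Cy5 and in Cy3 alone and 1708 to 3341 without 1 replicate. The lower features numbered 2311 with Agilent's processed signals, 4134 with a dye term, 4814 with a slide block and 5520 at an adjusted p under 0.05. Against 1 gene higher than scramble, the count was 0 with Agilent's processed signals and with siPax8 in Cy5 alone, 2 with the brightest probe and with both comparisons in one fit, 5 with siPax8 in Cy3 alone, 3 with a dye term, 4 with a slide block, 6 at an adjusted p under 0.05 and 0 to 0 without 1 replicate; genes lower than scramble numbered 2 with a slide block and 3 at an adjusted p under 0.05. Over all features, 433 were higher than scramble, beside 137 and 1470 with siPax8 in Cy5 and in Cy3 alone. The count was 1198 with a dye term, 1393 with a slide block, 1571 at an adjusted p under 0.05 and 89 to 266 without 1 replicate. Lower than scramble were 275 features, beside 1496 with a slide block and 1813 at an adjusted p under 0.05. The dye term and the slide block were fitted on single arrays, so dye-swapped arrays of 1 replicate counted as separate values. For each comparison the replicate block was fitted on single arrays too. Its correlation within replicates was -0.15 over wt and -0.12 over scramble, so it did not treat dye-swapped arrays as repeats either. In the slide block the correlation within slides was -0.45 over wt and -0.38 over scramble. Differences between the comparisons, 5 in the report, numbered 3 with Agilent's processed signals and with a slide block. They numbered 2 and 1 with siPax8 in Cy5 and in Cy3 alone, 18 at an adjusted p under 0.05 and 0 to 0 without 1 replicate. The 18 are 26.9% of the measured genes, beside 19.4% of all features at that threshold. The median log2 ratio over scramble (0.020) was 0.027 with Agilent's processed signals and with siPax8 in Cy5 alone, 0.039 with loess alone and with Aquantile, 0.011 with no filter and with the brightest probe, 0.012 with siPax8 in Cy3 alone and 0.010 to 0.017 without 1 replicate; over wt it moved by less than the spread of the replicates. The sign of 1 called value turned: Rab3ip over wt was 0.019 with siPax8 in Cy5 alone. With Agilent's processed signals, which have no offset, Stx3, Vamp1, Stx11 and Stx2 over wt were 0.58, 0.79, 0.70 and -0.33. The cause was not tested.

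Whether the replicate numbers pair samples across the comparisons is not settled by these data: same-number correlations were 0.39, 0.17, 0.04 and 0.57, above those with any other number in 3 of 4 replicates, while replicate 3 correlated more with another number (0.41). With the replicate block on single arrays, 13 genes were higher and 6 lower than wt (18 of the 19 kept, all but Rab3ip), and 1 was higher than scramble. Over all features, that fit called 2960 higher and 3512 lower than wt, beside 2625 and 3127 in the main fit. Against scramble it called 862 higher and 763 lower, beside 433 and 275. The difference between the comparisons was fitted separately on averaged values, with the replicate number as a block. There 7 genes differed, the 5 of the report with Rab3a and Rab3gap2.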
